A study of Castanea mollissima with 6 samples.

Results

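In roots of the Chinese chestnut, Castanea mollissima, 167 of the 33991 listed genes were both abundant and close in mean level between the groups compared. They were chosen by their group means: at least 100 FPKM (fragment counts divided by the length of the transcript and the size of the library) in r_1m and in r_3m, and an absolute log2 difference of the means, with 1 FPKM added to each, of at most 0.1, which is a change of at most 7.18%. Levels and differences between the groups therefore describe the choice and carry no test. The choice set no limit on the spread of the libraries inside each group, and most of what follows is about that spread. Spread and choice are still linked, because widely spread libraries can move a group mean past the limit. Comparisons of spread with other abundant genes are therefore descriptions as well.

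RNA was sequenced from 3 root libraries labelled r_1m and 3 labelled r_3m. The labels give the species and the tissue for all of them and no genotype, treatment or age, and they do not spell out what follows the r. Whether each library is a plant of its own is not stated, so the spread inside a group may be technical. The run numbers form a separate block for each group, so any batch in growth or sequencing cannot be told apart from the group. The titles hold no replicate numbers. Those used here follow the order of the run numbers and only name libraries.

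Transcripts that hold their level across tissues or ages are used as internal references when other transcripts are measured by quantitative PCR, and in plants these are commonly genes for the cytoskeleton, translation, protein turnover and central metabolism. A good reference has to be alike in every sample and not only on average, because a mean can stay in place while single samples scatter widely around it. FPKM measure each gene relative to its library, so a steady FPKM can differ from a steady amount per cell, and, where the summed FPKM of libraries differ, from a steady share of that sum. Fewer cells of a type and less RNA per cell cannot be told apart in whole roots. Gene IDs come without names in the table, so the roles of the 167 genes are not given here, root markers were not checked, and genes other than 4 are described by their ID prefix (the first 4 characters) and their rank.

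Of 1319 genes at 100 FPKM or more in both groups, the 167 steady genes were 12.7%. Another 504 had a difference above 0.1 and 648 one below -0.1. The steady genes sat at the crest of a single-peaked distribution: the neighbouring intervals of the same width held 145 genes, from -0.3 to -0.1, and 155 genes, from 0.1 to 0.3. The median difference of all 1319 abundant genes was -0.09. Among the steady genes, 89 differences were above 0 and 78 below, and 87 lay within 0.05. At the upper limit, a Cm05 gene just inside had means of 141 FPKM in r_1m and 152 FPKM in r_3m, and a Cm11 gene just outside had 223 and 240 FPKM. At the lower limit, a Cm05 gene just inside had 109 and 102 FPKM, and a Cm01 gene just outside had 131 and 122 FPKM. At the floor, a Cm07 gene entered with means of 100.1 and 101 FPKM, and a Cm03 gene with 101 and 99.7 FPKM stayed out. Genes on either side of these limits were nearly alike, so the limits mark no gap in the data.

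**Figure D1:**
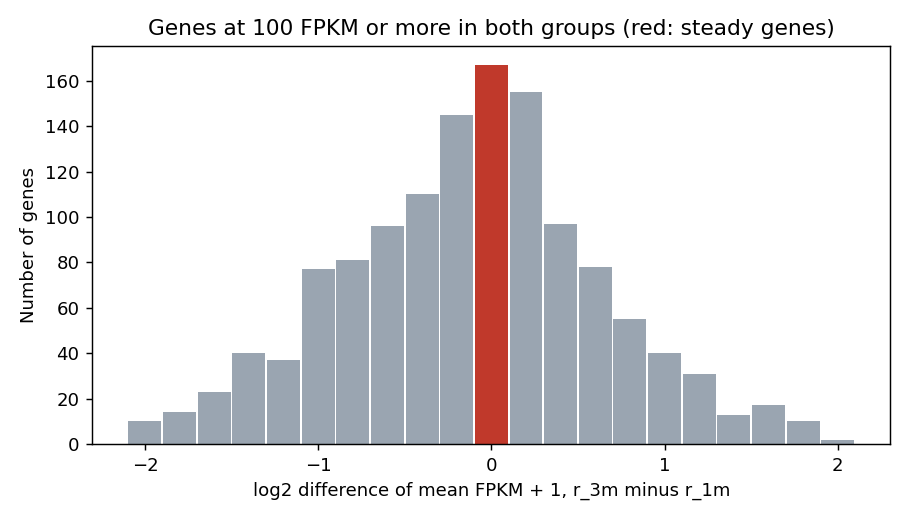
Number of genes (vertical axis) by the log2 difference of mean FPKM + 1, r_3m minus r_1m (horizontal axis, intervals of equal width), for genes at 100 FPKM or more in both groups. The red bar holds the 167 steady genes, and the bars beside it hold 145 and 155; 15 genes below -2.1 and 6 above 2.1 are not drawn.

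The steady genes were mostly at the lower end of the abundant range. Their mean over the 6 libraries ran from 101 to 1124 FPKM with a median of 166 FPKM; 109 were below 200 FPKM, 48 from 200 to 500 FPKM and 10 at 500 FPKM or more. Steady genes made up 23.0% of the 291 abundant genes with a mean of 100 to 150 FPKM and 5.10% of the 196 averaging 500 FPKM or more. The floor of 100 FPKM in both groups fixes part of this, because a gene with a mean near the floor cannot differ much and still pass. Of 29 genes at 1000 FPKM or more in both groups, 1 was steady. Single libraries went below the floor for 21 of the 167 genes, for 5 of them in r_1m and for 20 in r_3m, and the lowest single value was 73.3 FPKM, in r_3m.

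The most abundant steady gene was Cm09G01849.gene. It had 1076, 1127 and 1164 FPKM in r_1m replicates 1, 2 and 3 and 1089, 1112 and 1177 FPKM in r_3m replicates 1, 2 and 3. The ranges overlapped almost completely, with means of 1123 ± 44.4 and 1126 ± 45.6 FPKM (SD, n = 3 each). It was the 58th gene of the table by level in r_1m and the 41st in r_3m.

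Cm08G00053.gene came next, with 683, 699 and 650 FPKM in r_1m and 699, 671 and 721 FPKM in r_3m. Its difference of means was 0.04 on the log2 scale. In r_3m, replicates 1 and 2 lay inside the r_1m range and replicate 3 was above it. Cm09G02050.gene, the highest of the steady genes with a difference below 0 (-0.04), had 630, 679 and 679 FPKM in r_1m and 599.5, 665 and 665 FPKM in r_3m. In both groups replicate 1 was the low library of that gene; replicate numbers pair nothing across groups.

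Cm06G00639.gene, the second of the steady genes with a difference below 0, was closer to the limit at -0.09. It had 614, 613 and 598 FPKM in r_1m, a narrow range, and 524, 572 and 613 FPKM in r_3m. In r_3m, replicate 3 was inside the r_1m range and replicates 1 and 2 were below it. The 95% intervals of the log2 differences from the limma fit over all genes ran from -0.15 to 0.16 for Cm09G01849.gene, from -0.11 to 0.19 for Cm08G00053.gene, from -0.21 to 0.12 for Cm09G02050.gene and from -0.27 to 0.08 for Cm06G00639.gene.

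The other 6 of the 10 highest steady genes carried the prefixes Cm07 (2 genes), Cm01, Cm08, Cm11 and Cm04, with means of 503 to 595 FPKM over the 6 libraries. For 8 of the 10, the highest of the 6 values was at most 1.25 times the lowest. A Cm01 gene at rank 6 among the steady genes was the widest of the 10, with 552, 525 and 502 FPKM in r_1m and 642, 615 and 421 FPKM in r_3m. Its r_3m replicates 1 and 2 were above every r_1m library and its replicate 3 was below every one. A Cm07 gene at rank 10 was the narrowest, with 492, 511 and 516 FPKM in r_1m and 492, 510 and 497 FPKM in r_3m.

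Ranks shifted within these narrow differences of level. All 10 of the highest steady genes stood nearer the top of the table in r_3m than in r_1m, by 17 to 72 places. Of the 58 steady genes at 200 FPKM or more, 57 had a better rank in r_3m, and of the 109 below 200 FPKM, 64 did. A rank depends on the levels of the other genes as well as on the member's own small difference, and the parts of each were not tested.

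Libraries of r_3m scattered more around their mean than libraries of r_1m. Over the steady genes, the median SD of log2 FPKM was 0.0405 between the r_1m libraries (quartiles 0.0254 and 0.0610) and 0.103 between the r_3m libraries (quartiles 0.0544 and 0.165), and 139 of the 167 genes had the larger SD in r_3m. Over the other 1152 abundant genes the medians were 0.0354 and 0.118, and 89.0% had the larger SD in r_3m. The other abundant genes had a higher median level, 228 FPKM against 166 FPKM. Among genes averaging 500 FPKM or more, the median r_3m SD was 0.0564 over the 10 steady genes and 0.156 over the others. The median r_1m SD of the same genes went the other way, at 0.0463 and 0.0341. Between 100 and 150 FPKM the r_3m medians were 0.111 and 0.113, and the r_1m medians 0.0415 and 0.0388. In r_3m the medians were 0.0994 and 0.116 from 150 to 200 FPKM, and 0.108 and 0.113 from 200 to 500 FPKM. In r_1m they were 0.0378 and 0.0356 from 150 to 200 FPKM, and 0.0319 and 0.0351 from 200 to 500 FPKM. These differences were not tested. The relative depth read from the steps of the low FPKM values was 94.6% and 88.0% of replicate 1 for r_1m replicates 2 and 3, and 72.0% and 95% of replicate 3 for r_3m replicates 1 and 2. The part of depth in the wider r_3m spread was not tested. Without r_3m replicate 1, the shallowest of its group, the median r_3m SD was 0.0750. It was 0.107 without r_3m replicate 2 and 0.0556 without r_3m replicate 3. These are medians of SDs of 2 libraries, which tend to be lower than those of 3, so they are not directly comparable with 0.103.

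**Figure D2:**
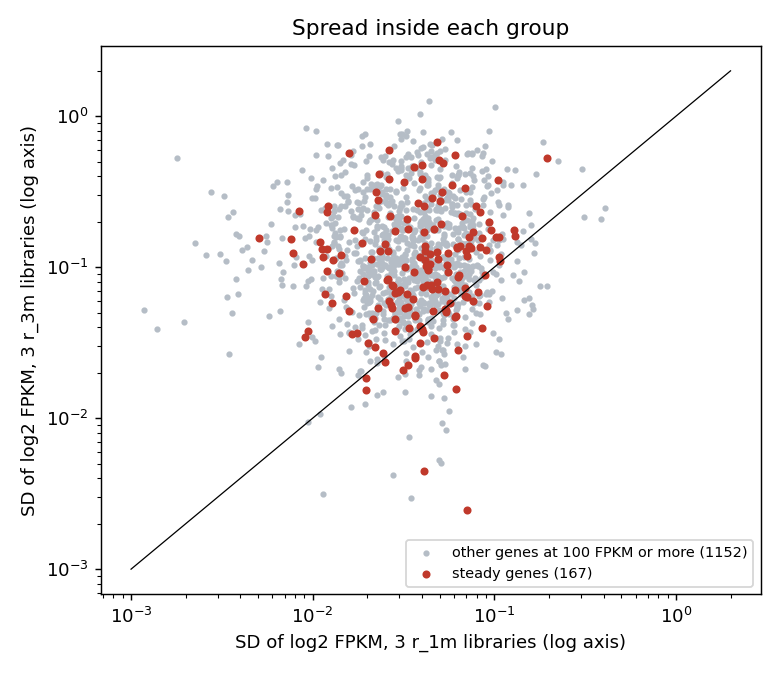
SD of log2 FPKM over the 3 r_1m libraries (horizontal, log axis) and over the 3 r_3m libraries (vertical, log axis), 1 point per gene at 100 FPKM or more in both groups, with the 167 steady genes in red; the line marks equal SDs. Most points of both kinds lie above the line, 139 of the 167 steady genes among them.

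In r_1m, the highest library of a steady gene was at most 1.28 times the lowest, with a median of 1.05 times. In r_3m the median was 1.15 times and the largest 2.29 times. Every steady gene stayed within 1.5 times in r_1m, whereas 17 (10.2%) exceeded it in r_3m, 36 exceeded 1.25 times and 4 exceeded 2 times. Among the other abundant genes, 183 (15.9%) exceeded 1.5 times in r_3m. The limit of 1.5 times was chosen after the values were seen. The count of 17 rests on 1 library: it was 10 without r_3m replicate 1, 15 without replicate 2 and 1 without replicate 3.

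In each of the 17, the r_3m libraries reached both above the highest and below the lowest r_1m library, which close means, narrow r_1m ranges and a wide r_3m range together nearly fix. In 15 of the 17, replicate 2 lay between replicates 1 and 3, with replicate 1 highest in 8 and replicate 3 highest in 7. Over all 167 steady genes replicate 2 lay between the others in 88 (52.7%), and over the 183 other abundant genes past 1.5 times it did so in 134 (73.2%). The 17 carried 8 different ID prefixes and had means of 106 to 543 FPKM.

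The steady gene with the largest spread, a Cm10 gene at rank 140, had 115, 113 and 121 FPKM in r_1m and 80.5, 84.3 and 184 FPKM in r_3m. Its log2 difference of means was 0.00057, although no r_3m library was within the r_1m range. The 1 high r_3m library offset the 2 low ones in the mean of FPKM. Between means of log2 values, as in the limma fit, its difference was -0.108, past the limit. A Cm06 gene at rank 13 had 459, 451 and 443 FPKM in r_1m and 307, 414 and 700.1 FPKM in r_3m, and a Cm12 gene at rank 41 had 245, 240 and 242 FPKM in r_1m and 157, 217 and 345 FPKM in r_3m. In these 3 genes replicate 3 was the high library and replicate 1 the low one. A Cm10 gene at rank 11 showed the reverse, with 512, 487.5 and 480 FPKM in r_1m and 608, 513 and 307 FPKM in r_3m.

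**Figure D3:**
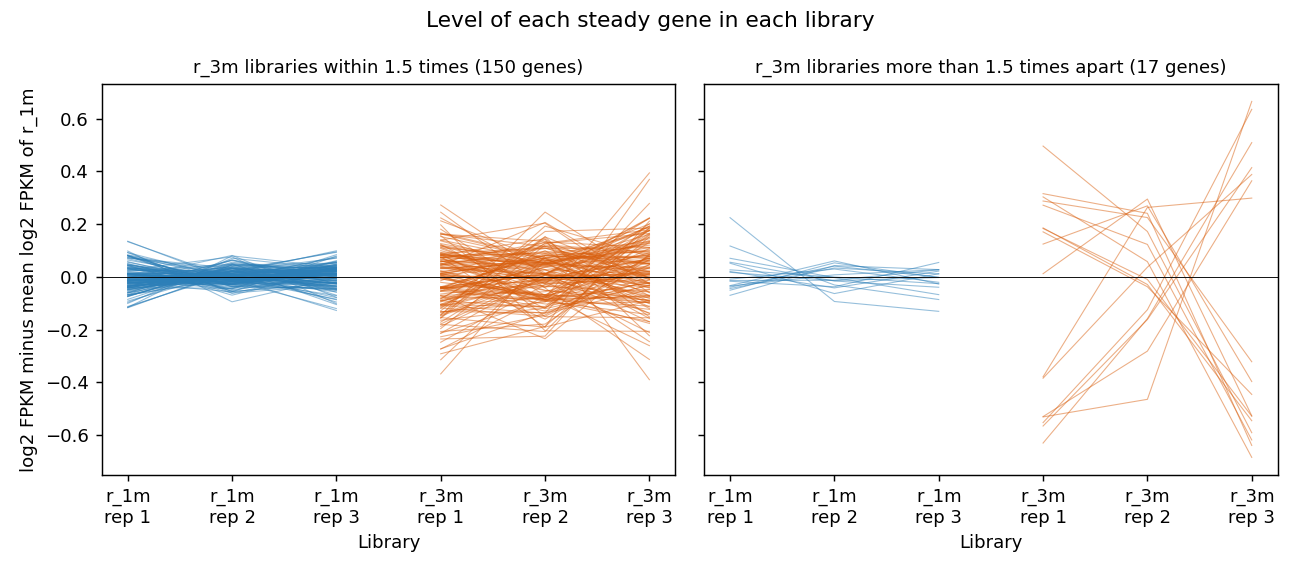
Log2 FPKM of each steady gene in each library minus its mean log2 FPKM in r_1m (vertical axis), by library (horizontal axis), with r_1m in blue and r_3m in orange; a line joins the values of 1 gene and implies no order of the libraries. The 150 genes within 1.5 times in r_3m are on the left and the 17 past it on the right, where replicates 1 and 3 of r_3m lie on opposite sides for most genes.

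**Figure D4:**
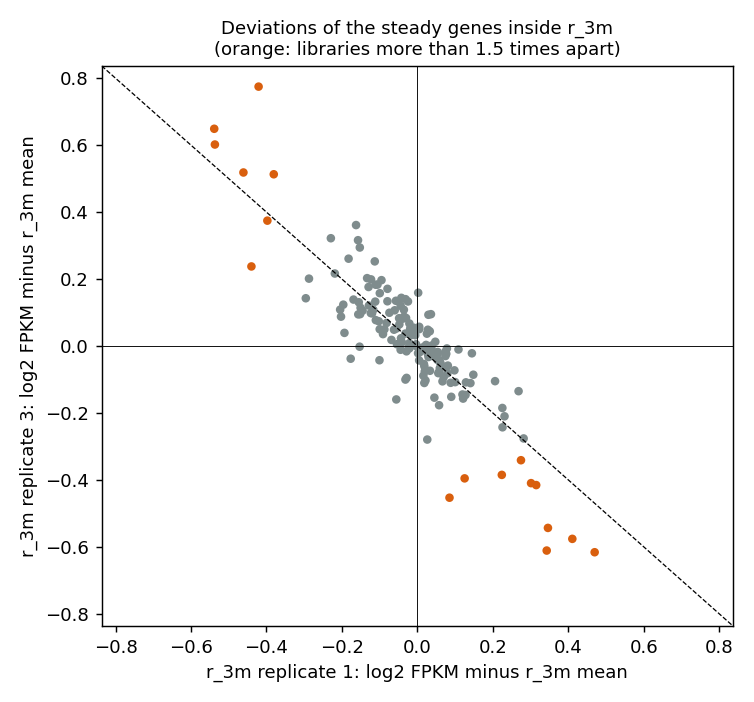
Log2 FPKM minus the r_3m mean for r_3m replicate 1 (horizontal axis) and r_3m replicate 3 (vertical axis), 1 point per steady gene, with the 17 genes past 1.5 times in orange; deviations of 3 libraries sum to 0, which alone tilts the cloud downward. The orange points form 2 arms, 8 genes with replicate 1 highest and 7 with replicate 3 highest, beside 2 with replicate 2 highest.

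The middle 80% of the steady genes deviated from their r_3m mean by -0.17 to 0.13 in r_3m replicate 1, by -0.10 to 0.12 in replicate 2 and by -0.16 to 0.20 in replicate 3, on the log2 scale. In r_1m the widest such range was -0.06 to 0.07, in replicate 1. The summed FPKM of the 167 genes was 35398, 35568 and 35497 in the r_1m libraries and 35141, 35656 and 36132 in the r_3m libraries. The sums of r_3m spanned those of r_1m, with means of 35487.5 ± 85.7 and 35643 ± 495 FPKM (SD, n = 3 each). As a share of all FPKM, the 167 genes held 3.86% ± 0.0140 in r_1m and 4.04% ± 0.0326 in r_3m, since all genes together summed to 918620 ± 1538 FPKM in r_1m and to 881225 ± 8305 FPKM in r_3m (SD, n = 3 each). A steady FPKM was in this sense a slightly larger share in every r_3m library.

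At the other end, some genes were alike in every library. In 39 of the 167 the highest of the 6 values was at most 1.1 times the lowest; the limit on the difference of means leaves little room for other abundant genes to meet this, and 0 did. In 10 genes each of the 9 pairings of an r_1m with an r_3m library was within 0.1 on the log2 scale; these had means of 116 to 503 FPKM and 6 different prefixes. The gene with the smallest spread, a Cm01 gene at rank 77, had 178, 178 and 182 FPKM in r_1m and 173, 169 and 170.4 FPKM in r_3m. Its groups did not overlap, although its difference of means, -0.07, kept it among the steady genes. A second Cm01 gene, at rank 28, had 283, 283 and 290 FPKM in r_1m and 287, 293 and 292.5 FPKM in r_3m, and its groups overlapped. A Cm08 gene at rank 122 had 128, 128 and 132 FPKM in r_1m and 134, 138 and 136 FPKM in r_3m, and its groups did not overlap. The Cm01 gene at rank 28 had the smallest ratio of highest to lowest value of the 167, 1.04.

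Between single libraries, a steady gene was further apart than its means. Across the 9 pairings of libraries of different groups, the median absolute log2 difference of the steady genes was 0.0727 to 0.106, and 77 to 106 of the 167 genes were within 0.1. Inside r_1m the same median was 0.0344 to 0.0574, and inside r_3m it was 0.0781 to 0.150, so the range inside r_3m overlapped the range between the groups. For the other abundant genes the medians were 0.558 to 0.608 between groups, 0.0318 to 0.0526 inside r_1m and 0.103 to 0.178 inside r_3m.

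The closeness of each gene is known only to the precision of 3 libraries a group. In the limma fit over the 20038 genes averaging 1 FPKM or more, 67.5% of all genes tested were called at an adjusted p below 0.05 (33.9% higher and 33.6% lower in r_3m), and 0 of the 167 steady genes were; at an unadjusted p below 0.05 the count was also 0. The rule used the same contrast, so nothing is read from that count, and a p that misses a threshold does not show that levels are equal. The groups did not overlap in 15 of the 167 genes (73.9% of all genes tested), with r_3m higher in 11 and lower in 4. The median SE of the log2 difference was 0.0705 over the steady genes. The fit takes 1 variance per gene for both groups, although 139 of the 167 had the larger SD in r_3m. All SEs and intervals given here rest on that assumption. The 95% interval lay inside ±0.1 for 0 genes, inside ±0.25 for 109 and inside ±0.5 for 155. For the other 12 genes, each among the 17 past 1.5 times, it reached beyond ±0.5. The smallest SE was 0.0514, and the interval of that gene, from -0.19 to 0.05, was itself wider than ±0.1. No gene could therefore have had its interval inside ±0.1, whatever its difference. Without r_3m replicate 3, limma called 22 of the 167 genes, 7 higher and 15 lower in r_3m, and without r_3m replicate 1 it called 3. The share of all genes called in those fits was not computed, so nothing is read from these counts.

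Which genes count as steady depended on the scale. With every library brought to a total of 1000000 (the TPM scale), 181 genes met the rule, of which 112 were among the 167, or 67.1% of these and 61.9% of the 181. The other 55 of the 167 moved above 0.1, and the median difference of the 167 went from 0.01 to 0.06. After median-of-ratios scaling, which centres the ratios of genes detected in all libraries, 149 of the 167 were among 179 genes that met it, and the median was -0.02; 17 fell short of the lower limit and 1 of the floor. After quantile normalization, which gives all libraries the same distribution, 109 were among 164, and the median was 0.07. A core of 77 genes (46.1% of the 167) met the rule on all 4 scales. Of the 10 genes within 0.1 in all 9 pairings, 8 did, and of the 17 past 1.5 times in r_3m, 7 did.

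**Figure D5:**
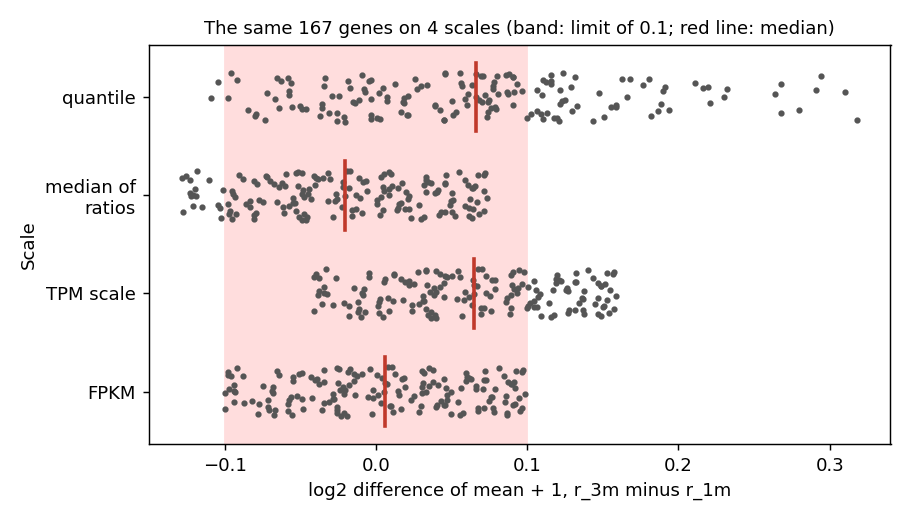
Log2 difference of mean + 1, r_3m minus r_1m (horizontal axis), of the 167 steady genes on 4 scales (vertical axis), 1 point per gene, with a red line at the median and a band at the limit of 0.1. On the TPM scale 55 genes pass the upper limit, after median-of-ratios scaling 17 pass the lower limit, and 77 meet the rule on all 4 scales.

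Steady genes were found under every ID prefix. Cm01, with the most listed genes (4499), held 32 of the 167, and Cm00 held 1. As a share of the abundant genes of a prefix they ran from 7.92% (8 of 101) in Cm11 to 18.7% (14 of 75) in Cm06, leaving aside Cm00 with 4 abundant genes. Among the steady genes, 2 pairs of consecutive ID numbers held 4 of the 167 (2.40%), and among the 1319 abundant genes, which are more densely spaced, 94 such pairs held 182 (13.8%). The pairs of steady genes were a Cm02 pair with means of 213 and 104 FPKM and a Cm09 pair with means of 114 and 199 FPKM. Of the 330 other genes with an ID number directly beside a steady gene, 20 were abundant, 89 had a mean below 1 FPKM and 28 of these were at 0 in all 6 libraries; their median mean level was 9.17 FPKM. That ID numbers follow the order of genes was not checked.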

How the data were processed

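The authors deposited 1 table of FPKM for 33991 genes and 213 columns. The tools named in the submitters' processing notes are FastQC 0.11.9, Trimmomatic and STAR 2.7.10b. Not given in the sources used here are the counter, the genome build, the annotation and how multi-mapping reads were handled, so genes with near-identical copies may share reads. The 6 columns matching the root titles were used; 207 were not analysed here. Members were taken from the means of the 3 libraries of each group. The members and lists were chosen with earlier results of these data known. Spread is the SD of log2 FPKM (no pseudocount) in a group. The contrast was fitted with limma 3.58.1 in R 4.3.3 on log2(FPKM + 1), with a variance trend and Benjamini-Hochberg adjustment over the 20038 genes averaging 1 FPKM or more, and tested on simulated data. Python 3.11.15 did the rest. Absolute depth is unknown; within a group, relative depth was the most frequent ratio of values of 0.1 to 1 FPKM, which move in steps of 1 fragment. Named were the 2 highest members with a difference above 0 and the 2 highest below 0; the 10 highest, the 3 of smallest and 3 of largest spread and genes beside the limits are given by prefix, and the Cm10 gene at rank 11 was chosen after its values were seen. The gene lists needed names and were not run. Alternatives were other pseudocounts, means, scales, limits and filters, and each library left out.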

Additional observations from a re-analysis of the deposited data

How the results depend on the processing

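The number of steady genes was 165 at a pseudocount of 0.1, 163 from means of log2 values and 174 from group medians. It was 87 at a difference limit of 0.05 and 323 at 0.2, and 432 at a floor of 50 FPKM and 57 at 200 FPKM. Leaving out 1 library gave 149 to 176 steady genes, 119 to 155 of them among the 167. Of the 167, 76 (45.5%) met the rule in all 6 sets. None of the 17 genes past 1.5 times in r_3m did, which their spread alone fixes. Their r_3m means without the highest and without the lowest library lie too far apart to both meet the limit. Limma called 1 of the 167 with no filter, 2 on the TPM scale and 0 to 22 with 1 library left out. Shares over all genes were not computed for these fits, so nothing is read from the counts. The count past 1.5 times in r_3m, an alternative chosen after seeing the data, was 1 to 15 with 1 r_3m library left out. The median SD was 0.0245 to 0.0408 in r_1m and 0.0556 to 0.107 in r_3m with 1 library of the group left out. These SDs are of 2 libraries and tend to be lower than SDs of the whole group. The median SE was 0.0826 without a variance trend. For the 4 named genes, 44 of 48 recomputed differences moved by less than the spread between libraries. The other 4 were under quantile normalization, at 0.27, 0.29, 0.21 and 0.17 for Cm09G01849.gene, Cm08G00053.gene, Cm09G02050.gene and Cm06G00639.gene. Quantile normalization sets each value by its rank in the library. By group means, these 4 genes went from 58th to 41st, 145th to 97th, 152nd to 117th and 178th to 142nd, from r_1m to r_3m. What moved the ranks was not tested. All 4 genes passed the limit of 0.1 there, so none of them is in the core of 77. Cm08G00053.gene also passed it on the TPM scale (0.101). Cm06G00639.gene passed the lower limit after median-of-ratios scaling (-0.121), without r_1m replicate 3 (-0.106) and without r_3m replicate 3 (-0.149). No paired analysis was possible because nothing in the labels pairs a library of r_1m with one of r_3m.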
